A study of Mus musculus with 17 samples.

Results

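The replication-dependent histone genes were taken as every gene listed in the deposited expression files whose symbol began with Hist1h, Hist2h, Hist3h or Hist4h. This rule found 66 genes among the 18836 genes listed in at least 1 of 17 libraries, of which 6 encoded linker histone H1, 18 encoded H2A, 17 encoded H2B, 12 encoded H3 and 13 encoded H4. Of these 66 genes, 18 had a mean FPKM (a read level scaled by transcript length and library size) of at least 1 over the 16 cultured libraries and entered the tests, and 48 did not. The cells were mouse neural retinal progenitor cells (mNRPCs), grown out of the neural retina of adult C57BL/6 mice and expanded in culture. A library was made on day 0, labelled as without treatment, and libraries were made on days 1, 3, 5 and 7 in basic medium without a factor (BM), with basic fibroblast growth factor (B), with CHIR99021, an inhibitor of the kinase GSK3 (C), or with both (BC), and each combination of medium and day was sequenced in 1 library. Every culture shared the serum-free N2 and B27 basic medium. The study's methods describe isolation and culture of the cells with both basic fibroblast growth factor (bFGF) and CHIR99021. The study describes the day 0 control as cells cultured in BM. Comparisons with bFGF below thus do not start from cells new to it, and the time without the factors before day 0 is not stated. No group was repeated in a separate culture, so each p-value below measures the spread between libraries around an additive model and not the spread between separate cultures.

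Histones package DNA into nucleosomes. A nucleosome core holds H2A, H2B, H3 and H4, and H1 binds the DNA between cores. The genes described here supply most of the histone protein that new DNA needs during S phase, and their mRNAs typically end in a conserved stem-loop in place of a poly(A) tail. The stem-loop is bound by SLBP, which carries these mRNAs through processing, translation and decay. Some of the same genes can also give polyadenylated mRNAs from a site further downstream or after splicing, and such transcripts are known from cells that have stopped dividing. RNA in this study was selected with poly-T beads, so transcripts without a poly(A) tail were not the intended target of the libraries, and the levels below are those of RNA that passed this selection. How much each gene's level depended on this selection was not tested.

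The stem-loops of 7 genes on which the results turn are shown first, because they mark where the classical mRNA ends. The capitals mark the 16-base stem-loop, and up to 5 bases on either side are in lower case, all read from the mouse GENCODE M21 transcripts on GRCm38.p6.
Hist1h2ao: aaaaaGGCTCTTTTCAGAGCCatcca
Hist1h2ap: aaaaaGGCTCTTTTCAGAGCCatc
Hist2h2aa1: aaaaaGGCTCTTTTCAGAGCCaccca
Hist1h4h: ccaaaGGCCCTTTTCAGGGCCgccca
Hist1h1c: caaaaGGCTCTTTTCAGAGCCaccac
Hist3h2a: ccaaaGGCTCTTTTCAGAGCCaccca
Hist1h4i: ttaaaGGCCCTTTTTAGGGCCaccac
The annotated transcripts of Hist1h2ao, Hist1h2ap and Hist2h2aa1 ended 31, 3 and 35 bases after the stem-loop. Those of Hist1h1c, Hist3h2a and Hist1h4i went on for 840, 1643 and 330 bases. The H2A and H1 genes shown carried the same 16 bases, and the 2 H4 genes carried variants of it.

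Among the 18 tested genes, 8 had an annotated transcript that ran at least 100 bases past the stem-loop, 3 were spliced after the stop codon and held no stem-loop, 5 ended near the stem-loop, 1 (Hist2h2be) had no match and 1 (Hist1h4k) had no annotated 3′ UTR. Among the 48 genes below the filter, the same classes held 14, 0, 17, 4 and 13 genes. This grouping by transcript end was chosen after expression values had been seen, so it is a description. The genes with the highest mean FPKM were Hist1h1c (GRCm38, chr13:23738808-23740367, plus strand, 1 exon) among those past the stem-loop, Hist1h2bc (chr13:23684199-23692908, plus strand, 2 exons) among the spliced and Hist2h2aa1 (chr3:96245497-96246082, plus strand, 1 exon) among those ending near it.

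All 17 libraries were of similar depth, with 17571973 to 19428744 expected counts each, and between 33 and 53 of the histone genes were listed per library. The histone genes together took 0.0080% to 0.0397% of the counts of a library. The progenitor markers Pax6, Six3, Sox2, Nes and Hes1 were present, while Rax and Six6 stayed at or below 0.07 FPKM, so the cells carried part of the markers of their label. The summed FPKM of the 5 photoreceptor markers reached at most 1.04, that of the 3 pigment epithelium markers 1.4, that of the 2 endothelial markers 0.09 and that of the 3 microglial markers 2.26. The germ cell gene Tnp1 was at 0 in every library, and the summed germ cell list reached at most 1.03. The sum of the 5 glial markers, nearly all Glul, reached 32.8 and that of the 4 neuronal markers 11.43.

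Levels were concentrated in a few genes. Hist1h2bc, an H2B gene, had the highest mean at 118 FPKM and gave 89.2% of the H2B signal. Hist1h1c, the gene of linker histone H1.2, followed at 88.4 FPKM and gave 97.7% of the H1 signal. Hist2h2aa1, an H2A gene, gave 45.1% of the H2A signal, Hist2h3c2 gave 53.9% of H3 and Hist1h4i gave 47.5% of H4. At the other end, 36 of the 66 genes had a mean under 0.5 FPKM. The linker genes Hist1h1e, Hist1h1d and Hist1h1b had means of 0.80, 0.67 and 0.51 FPKM, and in H3 the genes Hist1h3d and Hist2h3b had means of 0.67 and 0.65 FPKM.

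Near-identical copies limit what can be said of single genes. In the median H2A gene 84.2% of the 50-base words of the coding sequence occurred in another histone gene, against 80.2% in H2B, 85.4% in H3, 71.2% in H4 and 11% in H1. Hist1h2ao and Hist1h2ap have the same coding sequence, as do Hist2h2aa1 and Hist2h2aa2, and Hist1h2bq and Hist1h2br. The last 2 had identical values in all 17 libraries and stand for 1 measurement below, although they count as 2 genes. Only 12.4% of the 736 histone values above 0 were whole numbers within 0.01, against 65.9% of the values of all genes. All 13 values of Hist1h2ao above 0 were whole multiples of 5.155 counts, within 2%. The 7 values of Hist2h3c1 above 0 were 35.58 in 1 library, 41.83 in 2 libraries and 83.67 in 4 libraries. Hist1h1c, Hist3h2a and Hist2h2be shared few of the 50-base words of their coding sequence with other members, at 22.0%, 12.3% and 0%. Sequence outside the coding part was not compared. Their counts were still whole numbers in only 1, 0 and 0 of 17 libraries, and how their reads were assigned was not tested.

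A sum over many copies depends less than a single gene on how reads were assigned. The sum over all 66 genes was 241.93 FPKM on day 0 and lay between 126.16 and 166.43 on day 1, below every later library. On day 3 it was 448.52 (BM) and 493.87 (C) without bFGF and 180.37 (B) and 321.74 (BC) with it. On day 5 the sums for BM, C, B and BC were 564.38, 619.35, 353.12 and 374.16, and on day 7 they were 480.27, 608.75, 268.96 and 384.26. In FPKM, from day 3 on, every culture without bFGF lay above every culture with it. These sums were not scaled for a shift of the whole transcriptome, and ranges after such scaling are not given.

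**Figure D1:**
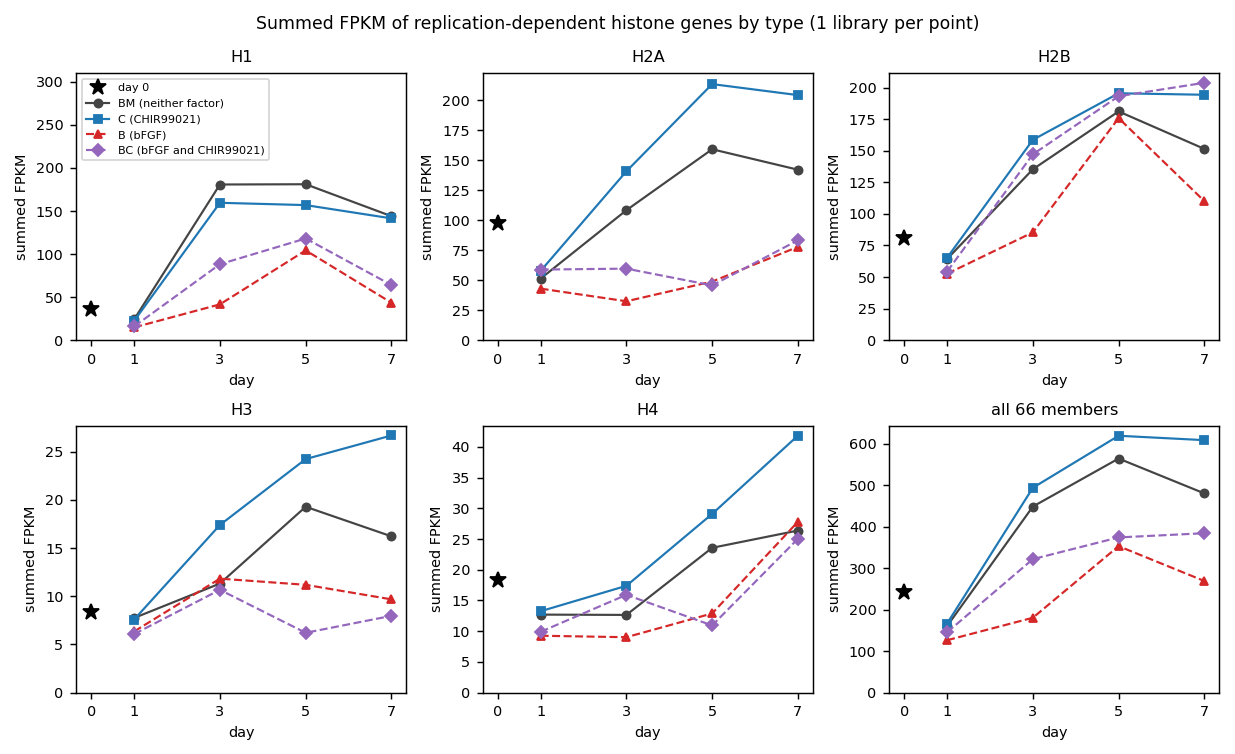
Summed FPKM of the histone genes of each type (vertical axes) by day (horizontal axes), with 1 library per point, the star for day 0, solid lines for cultures without bFGF and dashed lines for cultures with it. The H1 and H2A sums of days 3 to 7 lie lower with bFGF in each pair of cultures, while the ranges of the H2B sums with and without bFGF overlap.

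Pairing B with BM and BC with C on each day, the H2A sum with bFGF was lower in 6 of 6 pairs of days 3 to 7, with a mean difference of -1.51 ± 0.48 (SD, n = 6 pairs) on the log2 FPKM scale. The H1 sum was also lower in 6 of 6 pairs, with a mean difference of -1.17 ± 0.64. The differences for H3 and H4 were -0.98 ± 0.75 and -0.59 ± 0.54, each lower in 5 of 6 pairs, and that for H2B was -0.20 ± 0.29. These values share a shift of the whole transcriptome. The median of the 11272 tested genes differed by -0.33 in the same pairs on the log2(FPKM + 1) scale. After TMM scaling, which is also used in the tests below, the mean differences were -1.19 ± 0.53 for H2A, -0.81 ± 0.71 for H1, -0.68 ± 0.65 for H3, -0.24 ± 0.51 for H4 and 0.06 ± 0.37 for H2B. The direction for H2B thus changed with the scaling. The H2A sum stayed lower with bFGF in 6 of 6 pairs after TMM scaling, and H1, H3 and H4 in 5 of 6 pairs each. No test was made on these sums.

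The pattern by gene was mixed in direction. Over days 1 to 7, 2 of the 18 tested histone genes were higher with bFGF and 7 were lower (edgeR quasi-likelihood test, adjusted p under 0.05), where 34.6% of all tested genes were higher and 33.9% lower. The lower count is thus close to the background and the higher count is below it. The median log2 fold change was -0.25 over the 18 genes and -0.002 over all genes tested. By type, 1 of 1 H1 gene was lower, 2 of 6 H2A genes were higher and 2 lower, 1 of 6 H2B genes was lower, 1 of 2 H3 genes was lower and 2 of 3 H4 genes were lower.

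**Figure D2:**
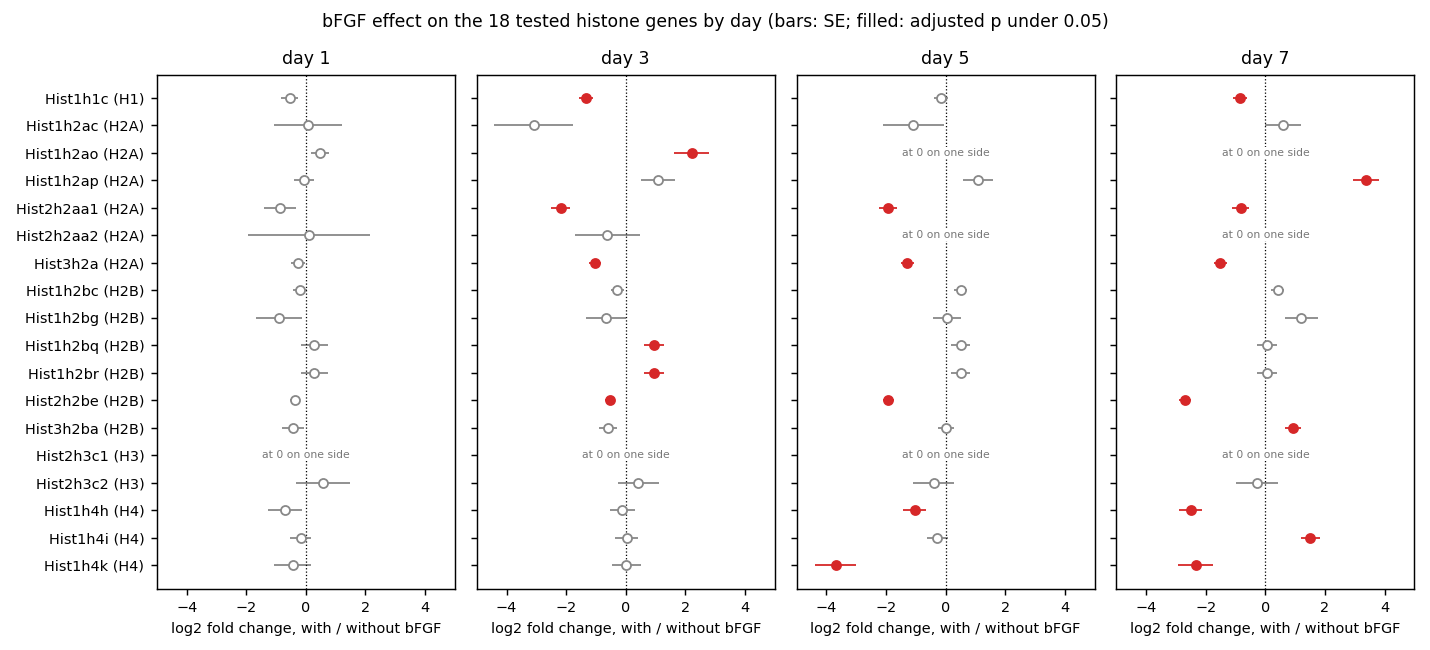
The log2 fold change of each tested histone gene with against without bFGF (horizontal axes) on each day, with bars for the SE and filled points for an adjusted p under 0.05. Genes at 0 in every library of a side are marked in words and not plotted. On day 1 no point is filled, and on day 7 filled points lie on both sides of 0, from Hist2h2be at -2.70 to Hist1h2ap at 3.38.

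Hist1h1c encodes a linker histone that is also known to be made outside S phase. Its FPKM without bFGF on days 3 to 7 was 178.41, 177.6 and 139.31 in BM and 157.49, 153.83 and 135.96 in C. With bFGF it was 41.26, 103.06 and 42.42 in B and 86.7, 117.36 and 62.78 in BC. In FPKM the groups did not overlap on these days, and all 4 cultures of day 1 were lower still, between 14.02 and 22.46. The tests used TMM scaling, which these FPKM values did not. After TMM scaling the H1 sum, nearly all Hist1h1c, differed by -0.16 (log2) on day 5, with 1 of 2 pairs higher and 1 lower. Hist1h1c fell with bFGF over days 1 to 7 by 0.72 on the log2 scale (SE 0.18, adjusted p = 0.00334). The log2 fold change was -1.33 (SE 0.25, adjusted p = 0.000793) on day 3, while the day 5 value of -0.15 (SE 0.24, adjusted p = 0.574) did not pass. On day 7 it fell by 0.85 (SE 0.25, adjusted p = 0.00664), and without the B library of that day the value was -0.60 (adjusted p = 0.0925).

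Hist3h2a, an H2A gene of the small cluster on chromosome 11 (chr11:58954685-58956830, plus strand), was lower with bFGF on each day from day 3 on. It read 41.65, 50.48 and 43.29 FPKM in BM and 45.45, 62.02 and 58.13 FPKM in C on days 3, 5 and 7. The values were 14.22, 16.91 and 13.74 in B and 26.55, 16.8 and 10.31 in BC. No culture with bFGF reached the lowest culture without it. Its log2 fold changes with bFGF were -1.03 on day 3, -1.28 on day 5 and -1.51 on day 7 (SE 0.21, 0.21 and 0.22, adjusted p = 0.00145, 0.000116 and 3.55e-05). On day 1 the value was -0.27 (SE 0.24, adjusted p = 0.52).

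Hist2h2be, an H2B gene whose transcript in the files is the longest of the family at 2667 bases, was lower with bFGF on days 3, 5 and 7. Without bFGF its FPKM was 2.73, 5.62, 5.02 and 6.11 in BM and 3.47, 6.82, 6.98 and 7.62 in C on days 1, 3, 5 and 7. With bFGF it was 2.29 and 2.23 on day 1, 3.98 and 3.96 on day 3, then 1.19 and 1.12 on day 5 and 0.64 and 0.82 on day 7 in B and BC. The log2 fold change was -0.55 (SE 0.16, adjusted p = 0.0121) on day 3, -1.92 (SE 0.18, adjusted p = 1.04e-06) on day 5 and -2.70 (SE 0.19, adjusted p = 8.43e-08) on day 7. The day 3 call was lost without the C library of that day (adjusted p = 0.0769) or without the BC library (adjusted p = 0.0962), and the other 2 days kept theirs in each such run.

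Hist2h2aa1 and Hist2h2aa2 lie close together on chromosome 3 in opposite directions and share their coding sequence, so their sum is given as well. Hist2h2aa1 alone was 57.71, 86.06 and 79.08 FPKM in BM and 80.89, 135.81 and 126.35 FPKM in C on days 3, 5 and 7. With bFGF it was 11.74, 20.88 and 37.36 in B and 16.71, 20.89 and 40.29 in BC, below all of the former in FPKM, which is without the TMM scaling of the tests. Its log2 fold changes with bFGF were -2.19 on day 3, -1.93 on day 5 and -0.83 on day 7 (SE 0.31, 0.30 and 0.28, adjusted p = 0.000133, 7.91e-05 and 0.0173). The day 7 call was lost with DESeq2 (adjusted p = 0.104), without the C library of day 7 (adjusted p = 0.143) and without the BC library of day 7 (adjusted p = 0.109). Hist2h2aa2 was listed at 0 in 8 of the 17 libraries. The sum of both genes was lower with bFGF in 6 of 6 pairs of days 3 to 7, with a mean log2 difference of -1.69 ± 0.62 (SD) after TMM scaling.

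Hist1h2ao (chr13:21810465-21810944, plus strand) and Hist1h2ap (chr13:21833026-21833507, minus strand) went the other way, and these are the 2 genes higher with bFGF over days 1 to 7. Both encode H2A, and both end close to the stem-loop in the annotation. Hist1h2ap was at 39.55 FPKM on day 0 and at 20.99, 27.48, 15.51 and 28.54 in BM, C, B and BC on day 1. By day 3 it had dropped to 1.16, 1.94, 4.08 and 2.19 FPKM in the same order. On day 7 it was 1.69 and 2.63 without bFGF and 13.5 and 18.03 with it, so the 2 libraries with bFGF lay above the 2 without. The rise with bFGF on day 7 was 3.38 (log2, SE 0.44, adjusted p = 1.56e-05), after 1.08 (SE 0.57, adjusted p = 0.135) on day 3 and 1.10 (SE 0.50, adjusted p = 0.0625) on day 5. Over days 1 to 7 it was 1.30 (SE 0.44, adjusted p = 0.0194), a call lost without the C library of day 7 (adjusted p = 0.0586).

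Hist1h2ao was at 31.34 FPKM on day 0 and between 9.84 and 14.06 on day 1. Without bFGF it was at 0.55 in both libraries of day 3 and listed at 0 in all 4 libraries of days 5 and 7. With bFGF it was 1.08, 2.78 and 5.94 in B and 3.79, 2.23 and 7.64 in BC on days 3, 5 and 7. It was higher with bFGF on day 5 (adjusted p = 8.31e-05) and on day 7 (adjusted p = 3.58e-06) in edgeR, and no fold is given because its smallest step was 5.155 counts and it shares its coding sequence with Hist1h2ap. The day 3 rise of 2.21 (log2, SE 0.58, adjusted p = 0.00948) was lost without the C library (adjusted p = 0.0698) or the BC library of that day (1.12, adjusted p = 0.133), and it was 2.82 without the B library. The sum of Hist1h2ao and Hist1h2ap was higher with bFGF in 6 of 6 pairs of days 3 to 7, with a mean log2 difference of 2.52 ± 1.21 (SD) after TMM scaling, and on day 7 it was 19.44 and 25.67 FPKM with bFGF against 1.69 and 2.63 without.

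**Figure D3:**
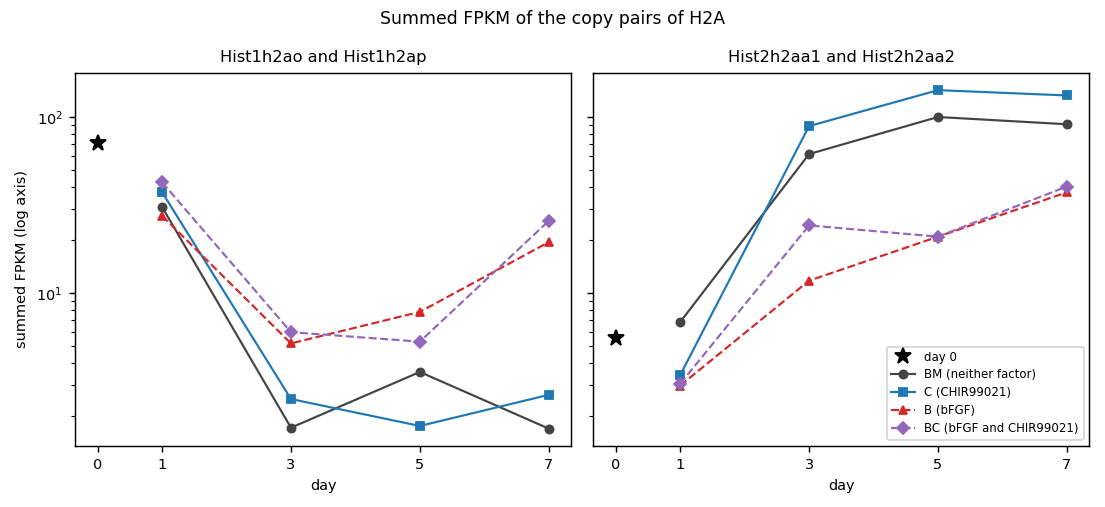
Summed FPKM of Hist1h2ao with Hist1h2ap (left) and of Hist2h2aa1 with Hist2h2aa2 (right) on a log axis by day, with 1 library per point and the star for day 0. On days 3 to 7 the dashed bFGF lines lie above the solid lines on the left and below them on the right, and on day 7 the left sums are 19.44 and 25.67 with bFGF against 1.69 and 2.63 without.

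The 300 bases around the start of a member of each H2A group are given next, because the 2 groups moved in opposite directions. The sequences are those of RefSeq on GRCm38.p6 and run from 250 bases before to 50 bases after the gene start on the coding strand. Capitals mark the CCAAT box, the TATA box (searched as TATAAA), the octamer (searched as ATTTGCAT) or the H1 box (searched as AAACACA) on either strand. The windows lie at chr13:21833426-21833725 (minus strand), chr3:96245247-96245546 (plus strand) and chr11:58954435-58954734 (plus strand).
Hist1h2ap: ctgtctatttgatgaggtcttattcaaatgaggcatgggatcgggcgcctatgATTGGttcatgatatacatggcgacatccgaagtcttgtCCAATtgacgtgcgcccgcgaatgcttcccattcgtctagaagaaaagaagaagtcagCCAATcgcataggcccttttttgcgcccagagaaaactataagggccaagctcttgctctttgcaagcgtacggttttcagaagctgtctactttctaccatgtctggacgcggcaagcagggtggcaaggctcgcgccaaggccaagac
Hist2h2aa1: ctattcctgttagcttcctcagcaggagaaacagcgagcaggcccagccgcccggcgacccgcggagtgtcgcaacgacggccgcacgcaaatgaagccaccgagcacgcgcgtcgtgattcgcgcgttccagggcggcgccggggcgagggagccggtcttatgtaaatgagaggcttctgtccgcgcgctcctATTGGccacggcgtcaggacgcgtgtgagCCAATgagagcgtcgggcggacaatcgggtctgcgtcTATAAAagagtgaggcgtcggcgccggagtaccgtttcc
Hist3h2a: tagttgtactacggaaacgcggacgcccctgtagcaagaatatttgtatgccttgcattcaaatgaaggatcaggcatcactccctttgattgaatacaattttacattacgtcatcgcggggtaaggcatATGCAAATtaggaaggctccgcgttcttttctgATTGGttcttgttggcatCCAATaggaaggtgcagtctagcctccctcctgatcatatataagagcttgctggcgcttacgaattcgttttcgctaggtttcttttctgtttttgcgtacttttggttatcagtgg
All 3 held the CCAAT box, Hist2h2aa1 also held the TATA box and Hist3h2a also held the octamer. Among the 61 histone genes with a promoter entry, 85.2% held the CCAAT box, against 41.1% of 27025 genes, with 100% in H1, H2A, H2B and H3 and 25.0% in H4. The TATA box was found in 55.7% of them against 15.7% of all genes, and the octamer in 21.3% against 2.0%, in H2A (38.9%) and H2B (40.0%) genes alone. The H1 box was found in 83.3% of H1 promoters, 13.1% of all histone promoters and 8.2% of all genes. These are matches of letters in a window, and no binding was measured.

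Most other H2B genes did not pass for bFGF. Hist1h2bc was 121.01, 159.19 and 133.97 FPKM in BM and 141.54, 171.43 and 171.71 in C on days 3, 5 and 7. It was 74.68, 161.95 and 95.74 in B and 133.28, 181.41 and 188.87 in BC, so the groups overlapped, and over days 1 to 7 its log2 fold change with bFGF was 0.11 (SE 0.15, adjusted p = 0.525). Hist1h2bq and Hist1h2br, which share their values, had a log2 fold change of 0.45 (SE 0.20, adjusted p = 0.0637) over days 1 to 7 and rose by 0.93 (SE 0.34, adjusted p = 0.0352) on day 3. That day 3 call was lost with DESeq2 (adjusted p = 0.0688), with the 3 limma settings (adjusted p = 0.0769 to 0.124) and without the C library (0.66, adjusted p = 0.251) or the BC library of day 3 (0.51, adjusted p = 0.303). It was also lost in the fit of day 3 alone (adjusted p = 0.151). Hist3h2ba rose with bFGF by 0.92 (SE 0.27, adjusted p = 0.00703) on day 7, but on the log2(FPKM + 1) scale without TMM its value was 0.33 (adjusted p = 0.109). That call also did not hold without the BM library (adjusted p = 0.0724) or the B library of day 7 (adjusted p = 0.0764). Hist1h2bg was at 0.53 to 3.27 FPKM over all 17 libraries and did not pass on any day.

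The H4 genes split. Hist1h4h rose in the cultures without bFGF to 11.74 FPKM (BM) and 13.71 FPKM (C) by day 7, while B was at 0.49 and BC at 2.66. It fell with bFGF by 2.51 (log2, SE 0.39, adjusted p = 6.57e-05) on day 7 and fell by 1.16 (SE 0.35, adjusted p = 0.0101) over days 1 to 7. The day 7 value was -1.94 without the B library of that day and -3.78 without the BC library. Hist1h4k was 4.02 and 5.88 FPKM in BM and C and 1 and 0.28 FPKM in B and BC on day 7, with a log2 fold change of -2.34 (SE 0.59, adjusted p = 0.003) that did not hold without the BC library of that day (-1.63, adjusted p = 0.0509) and was -3.55 without the B library. Hist1h4i, the most abundant H4 gene, was higher with bFGF on day 7, where B read 20.41 and BC 15.82, while BM read 7.44 and C 11.51, a log2 fold change of 1.5 (SE 0.32, adjusted p = 0.000912). The summed H4 level on day 7 was 27.81 and 25.04 FPKM with bFGF against 26.38 and 41.84 without.

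**Figure D4:**
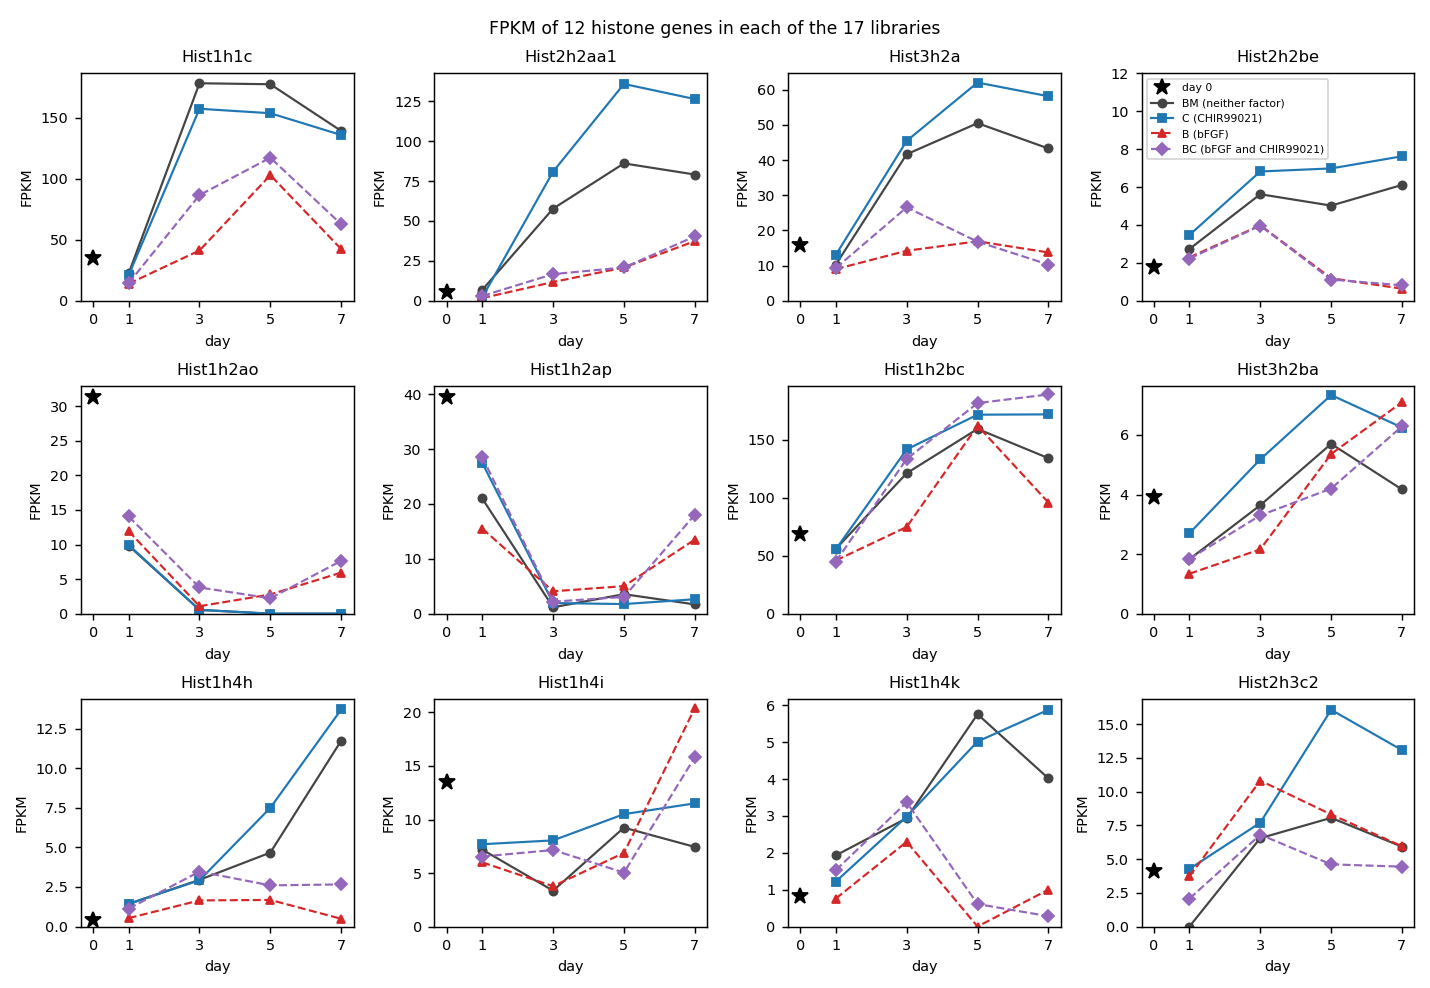
FPKM of 12 histone genes (vertical axes, each from 0) by day (horizontal axes) in all 17 libraries, with the star for day 0, solid lines for cultures without bFGF and dashed lines for cultures with it. Hist1h1c, Hist2h2aa1, Hist3h2a and Hist2h2be lie lower with bFGF from day 3 on, Hist1h2ao and Hist1h2ap drop from day 0 in every culture and lie higher with bFGF on day 7, and Hist1h4i and Hist1h4h part in opposite directions on day 7.

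In H3, Hist2h3c1 was at 0 in all 8 libraries with bFGF and at 3.59 to 7.34 FPKM in the 6 libraries of days 3 to 7 without it. It was lower with bFGF over days 1 to 7 in edgeR (adjusted p = 0.00167), and with DESeq2 it did not pass on day 3, 5 or 7 taken singly (adjusted p = 0.0735, 0.0713 and 0.0547). No fold is given, because its smallest value above 0 was 35.58 counts and reads can be shared with a copy. The gene shares all of its 50-base words with Hist2h3c2, which was not at 0 with bFGF, with a median of 6.38 FPKM on days 3 to 7 and a log2 fold change of 0.10 (SE 0.48, adjusted p = 0.856) over days 1 to 7. The sum of the pair was lower with bFGF in 5 of 6 pairs of days 3 to 7, with a mean log2 difference of -0.88 ± 0.72 (SD) after TMM scaling. Hist2h2aa2 was at 0 in all 4 libraries with bFGF of days 5 and 7, with an adjusted p of 0.0107 on day 5 and 0.0135 on day 7 in edgeR, and its copy Hist2h2aa1 was not at 0 there. The day 5 call was lost without the BC library of that day (adjusted p = 0.0546), and that of day 7 without the BM, B or BC library of that day (adjusted p = 0.0551, 0.0628 and 0.0687). The sum of Hist2h2aa1 and Hist2h2aa2 differed by -2.08 (log2, after TMM scaling) on day 5 and by -0.97 on day 7. Hist1h2ac, an H2A gene, was between 0 and 3.98 FPKM and did not pass for bFGF on any day.

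The counts of calls differed by day. On day 1 none of the 18 genes passed with edgeR, where 10.7% of all tested genes did, and 1 gene, Hist2h3c1, had an unadjusted p under 0.05. DESeq2 and limma also called 0 of them on day 1, a fit of day 1 alone called 1, and 2 were called without the C library of day 1. On day 3, 3 genes were higher and 5 lower, against a background of 25.4% and 25.0%. On day 5, 1 was higher and 7 were lower, against 37.2% and 38.6%, and on day 7, 4 were higher and 8 lower, against 38.8% and 39.6%. The lower counts were near the background on each of these days, and the higher counts were below it on days 3, 5 and 7. Of the 3 higher genes of day 3, Hist1h2bq and Hist1h2br stand for 1 measurement. Leaving out the C library of day 3 took the count of that day from 8 to 4. The difference between the bFGF effect of days 3 to 7 and that of day 1 passed for 4 genes, 2 in each direction, against a background of 28.9% higher and 33.2% lower. It was positive for Hist1h2ao and Hist1h2ap and negative for Hist2h2be and Hist3h2a.

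CHIR99021 called none of the 18 histone genes over days 1 to 7 with edgeR, against 0.337% of all tested genes. At an unadjusted p under 0.05 there was 1 gene, Hist1h2bc (log2 fold change 0.33, SE 0.15, adjusted p = 0.479), and DESeq2 and limma called 0 as well. The median log2 fold change was 0.24 over the 18 genes and 0.01 over all genes. The largest positive value was that of Hist1h4h at 0.64 (SE 0.34, adjusted p = 0.583). The summed FPKM of all 66 genes was higher with CHIR99021 in 8 of 8 pairs (C with BM, BC with B), by 0.29 ± 0.27 (SD) on the log2 scale, with 0.35 ± 0.30 for H2A, 0.32 ± 0.34 for H2B, 0.25 ± 0.38 for H4, 0.18 ± 0.44 for H1 and 0.04 ± 0.51 for H3. No test was made on these sums, and the SD exceeded the mean for H1, H2B, H3 and H4.

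Levels also differed between days within each arm. Between day 1 and day 3, 8 of the 18 genes rose and 2 fell without bFGF, where 35.3% of all genes rose and 32.0% fell. With bFGF, 9 rose and 2 fell, against 32.4% and 32.9%. Of these 9, Hist1h4k (adjusted p = 0.0495) did not pass in edgeR with no filter (adjusted p = 0.0846) or with DESeq2 (adjusted p = 0.0573). Hist1h4h did not pass with limma after quantile normalization (adjusted p = 0.0523). The median log2 fold change of the 18 genes was 1.07 without and 1.17 with bFGF, against 0.06 and 0.01 over all genes. Hist2h2aa1 rose by 3.93 (log2, SE 0.37, adjusted p = 1.71e-06) without and 2.62 (SE 0.45, adjusted p = 0.000261) with bFGF. The first of these was 5.21 without the BM library of day 1 and 3.08 without the C library of day 1. Hist1h1c rose by 2.97 (SE 0.27, adjusted p = 1.25e-06) and 2.18 (SE 0.27, adjusted p = 2.31e-05), Hist3h2a by 1.92 (SE 0.22) and 1.16 (SE 0.23), and Hist1h2bc by 1.25 (SE 0.23) and 1.18 (SE 0.23). In both arms the 2 genes that fell were Hist1h2ao and Hist1h2ap, and Hist1h2ap fell by 3.89 (SE 0.46, adjusted p = 1.14e-05) without and 2.75 (SE 0.41, adjusted p = 9.27e-05) with bFGF, where the value was -3.42 without the B library of day 3.

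Between day 3 and day 7 without bFGF, 1 gene passed, Hist1h4h, which rose by 2.09 (log2, SE 0.35, adjusted p = 0.00198), whereas 18.4% of all genes passed. With bFGF, 8 genes rose and 2 fell, against 32.7% and 33.6% of all genes. Hist1h2ap rose by 2.72 (SE 0.42), Hist1h4i by 2.17 (SE 0.34), Hist2h2aa1 by 1.87 (SE 0.32) and Hist3h2ba by 1.71 (SE 0.29) there, while Hist2h2be fell by 2.05 (SE 0.20, adjusted p = 3.36e-06) and Hist1h4k by 1.67 (SE 0.64, adjusted p = 0.0361). The adjusted p of the 4 rises lay between 0.000117 and 0.000259, and the rise of Hist1h2ap was 3.38 without the B library of day 3. The Hist1h4k call was lost without the BC library of day 3 (adjusted p = 0.136) or of day 7 (-0.97, adjusted p = 0.275), and its value was -2.89 without the B library of day 7. Hist1h2bc rose by 0.87 (SE 0.22, adjusted p = 0.00436), a call that was lost without the BC library of day 7 (adjusted p = 0.122) and on the log2(FPKM + 1) scale (adjusted p = 0.0926).

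Day 0 had 1 library, so folds against it carry no test. On the log2(FPKM + 1) scale, at least 2 times higher than day 0 on day 7 were 8 of the 18 genes in BM and 11 in C, where 21.1% and 21.5% of all genes were, and 2 and 4 in B and BC, where 11.9% and 12.1% were. At least 2 times lower on day 7 were the same 2 genes in every medium, Hist1h2ao and Hist1h2ap, where 13.0% (BM), 13.9% (C), 23.2% (B) and 25.6% (BC) of all genes were. On day 1, 6 genes were at least 2 times lower in B, against 0.622% of all genes, and 2 genes were in each of BM, C and BC, against 1.78%, 2.39% and 0.799%. At least 2 times higher on day 1 was 1 gene in each of BM, C and B and 0 in BC, against 7.15%, 7.07%, 3.71% and 3.49% of all genes. The log2 difference of Hist1h2ap from day 0 on day 7 was -3.91 (BM), -3.48 (C), -1.48 (B) and -1.09 (BC), so the libraries with bFGF lay nearer to day 0.

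The other genes of the pathway were read from lists. In the DNA replication list, 31 of 35 genes were higher with bFGF over days 1 to 7 and 1 was lower, and on day 7 the counts were again 31 and 1. The background was 34.6% higher and 33.9% lower over days 1 to 7, and 38.8% and 39.6% on day 7. Pcna, the sliding clamp of the replication fork, rose by 0.68 (log2, SE 0.13, adjusted p = 0.000936), and Cdt1, a licensing factor, by 2.01 (SE 0.28, adjusted p = 0.000176). Between day 1 and day 3, 34 of 35 of these genes fell without bFGF and 35 of 35 fell with it, where 32.0% and 32.9% of all tested genes fell, while 2 of the 18 histone genes fell in each arm. Rrm1, a subunit of ribonucleotide reductase, rose with bFGF by 0.67 (SE 0.13, adjusted p = 0.000791) over days 1 to 7, and Lig1, the ligase of Okazaki fragments, by 1.12 (SE 0.23, adjusted p = 0.00112). Rfc1, a subunit of the clamp loader, was the 1 replication gene that fell with bFGF over days 1 to 7 (-0.27, SE 0.10, adjusted p = 0.0271).

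Among 18 tested genes that transcribe, process or degrade histone mRNA, 8 rose and 5 fell with bFGF over days 1 to 7, which is near the background of 34.6% and 33.9%. Slbp, the stem-loop binding protein, rose by 0.29 (log2, SE 0.12, adjusted p = 0.0395), Lsm11, a subunit of the U7 snRNP that cuts histone pre-mRNA, by 1.32 (SE 0.20, adjusted p = 0.000288), and Sympk, a scaffold of the cleavage complex, by 0.62 (SE 0.13, adjusted p = 0.00128). Ncbp2, a subunit of the cap-binding complex, fell by 1.13 (SE 0.23, adjusted p = 0.00112), and Srrt, which works with that complex, had a value of -0.09 (SE 0.11, adjusted p = 0.458). Among 20 histone chaperones and assembly factors, 11 rose and 2 fell against the same background, with Asf1b, a chaperone of H3 and H4, at 1.26 (SE 0.22, adjusted p = 0.000492), Nap1l1, a chaperone of H2A and H2B, at 0.57 (SE 0.11, adjusted p = 0.000972), Rbbp7 at 0.49 (SE 0.11, adjusted p = 0.00183), Ssrp1, a subunit of FACT, at 0.54 (SE 0.08, adjusted p = 0.000247) and Ubn1, of the HIRA complex, at -0.41 (SE 0.09, adjusted p = 0.00223). Of 14 cleavage and polyadenylation factors of other mRNAs, 8 rose and 3 fell, including Fip1l1 at 0.81 (SE 0.12, adjusted p = 0.000226), Nudt21 at 0.69 (SE 0.12, adjusted p = 0.0005), Pabpn1 at 0.34, Papola at 0.32 and Cstf3 at -0.49 (SE 0.12, adjusted p = 0.00339). The median log2 fold change was 0.72 for the replication list, 0.36 for the chaperones, 0.25 for the polyadenylation factors and 0.11 for the histone mRNA list, against -0.002 over all genes.

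Replacement histones have genes that are mostly not tied to S phase and mRNAs that can carry poly(A) tails. They also split, with 4 of 11 higher and 3 lower with bFGF over days 1 to 7, near the background of 34.6% and 33.9%. Cenpa, the centromeric H3, rose by 2.37 (log2, SE 0.45, adjusted p = 0.00083), with a median of 96.75 FPKM on days 3 to 7 with bFGF against 12.17 without. H2afz, the variant H2A.Z, rose by 0.89 (SE 0.16, adjusted p = 0.000622). H1f0, a linker histone of resting cells, fell by 0.44 (SE 0.10, adjusted p = 0.0019), in the same direction as Hist1h1c, and H3f3a, which encodes H3.3, fell by 0.38 (SE 0.09, adjusted p = 0.00325), as did H3f3b, also an H3.3 gene, at -0.23 (SE 0.09, adjusted p = 0.041). CHIR99021 called 0 genes in each of these lists with edgeR.

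Markers of cycling cells were read in the same libraries. The summed FPKM of Mki67, Top2a, Ccna2 and Cdk1 was 441.79 on day 0, 40.34 to 381.06 in the 8 cultures without bFGF and 140.52 to 350.73 in the 8 with it. These ranges overlapped, but they pool day 1 with the later days. The median without bFGF was 9.47 FPKM for Mki67, 16.3 for Top2a, 11.6 for Ccna2 and 8.29 for Cdk1. The lowest values with bFGF were 23.76, 51.02, 38.4 and 20.13 in the same order. Each median without bFGF thus lay below every culture with it. The summed FPKM of the 3 fibroblast markers was 2.06 to 50.47 without and 1.33 to 5.95 with bFGF. The part of these markers in the histone results was not tested. In bulk RNA, fewer cells that express a gene and less RNA per cell cannot be told apart.

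By the end of the GENCODE transcript, the genes whose transcript runs past the stem-loop summed to 220.15 to 272.28 FPKM on days 3 to 7 without bFGF and 74.63 to 153.76 with it, so the ranges did not overlap. Hist1h1c gave most of this, with medians of 155.66 FPKM without and 74.74 with bFGF, against class medians of 250.92 and 123.43. The sums by class were not TMM-scaled. The gene models behind the FPKM were shorter, at 725 bases for Hist1h1c, 508 for Hist3h2a and 403 for Hist1h4i, where the longest GENCODE transcripts have 1560, 2146 and 727, so these sums do not measure the extended transcripts. The spliced genes, of which Hist1h2bc is nearly all, summed to 122.91 to 174.51 without and 77.24 to 191.15 with bFGF, which overlap. The genes that end near the stem-loop summed to 68.31 to 161.32 without and 21.55 to 74.65 with bFGF, which overlap. That last class held both directions: Hist1h2ao and Hist1h2ap were higher and Hist1h4h and Hist2h2aa1 lower with bFGF over days 1 to 7. Both directions also occurred among the 8 tested genes that run past the stem-loop on day 7, with 2 higher and 3 lower. The background that day was 38.8% higher and 39.6% lower.

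**Figure D5:**
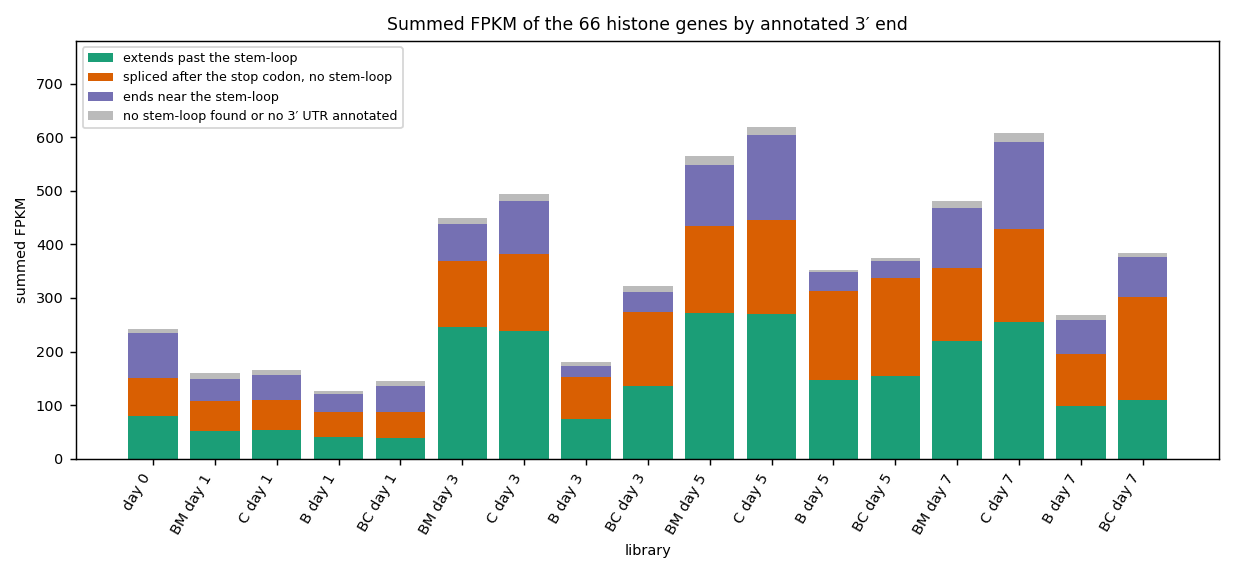
Summed FPKM of the 66 histone genes (vertical axis, bars from 0) in each library (horizontal axis), stacked by where the annotated transcript ends relative to the stem-loop. The genes whose GENCODE transcript runs past the stem-loop sum to 220.15 to 272.28 in the 6 libraries of days 3 to 7 without bFGF and to 74.63 to 153.76 in the 6 with it.

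The 48 genes below the filter held 49.5 to 375.7 expected counts per library in all. With no filter, 6 of them fell with bFGF over days 1 to 7 and 0 rose, where 23.8% of 18700 genes fell and 22.6% rose: Hist1h1d, Hist1h1e, Hist1h2be, Hist1h2bj, Hist1h3d and Hist2h4. Hist1h2be, under the filter at a mean of 0.97 FPKM over the 17 libraries, fell by 1.44 (log2, SE 0.45, adjusted p = 0.0156). Hist1h1e, at 0.54 to 3.36 FPKM on days 3 to 7 without bFGF and 0 to 0.83 with it, fell by 1.28 (SE 0.43, adjusted p = 0.023). On day 7, 4 of the 48 rose and 5 fell, where 25.6% of all genes rose and 27.4% fell. Among the risers were Hist1h4m, at 2.5 and 2.2 FPKM with bFGF and listed at 0 in both libraries without, and Hist2h3b, at 1.57 and 1.77 FPKM with bFGF and listed at 0 without.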

How the data were processed

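The deposited files gave, for each of 17 libraries, the expected count and the FPKM of every listed gene, which the authors made from poly-A-selected RNA sequenced on a BGISEQ-500. The submitters' processing notes name Bowtie2, RSEM and mm10, while the study's methods name eXpress for the FPKM, and versions are not given in the sources used here. Genes missing from a library's file were set to 0. The histone genes and all gene lists were chosen with earlier results of these data known. Groups were taken from the labels for treatment and time.

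Expected counts were rounded and tested with edgeR 4.0.16 (R 4.3.3) by its quasi-likelihood test with TMM scaling. The 11272 genes tested averaged 1 FPKM or more across the 16 cultured libraries, and p-values were adjusted over all of them by the Benjamini-Hochberg method (threshold 0.05). Effects over days 1 to 7 came from an additive model of bFGF, CHIR99021 and day (10 residual degrees of freedom). Effects by day came from a mean for each bFGF group and day plus a CHIR99021 term (7 residual degrees of freedom). The SE was derived from the fold change and its F statistic. With 1 library per condition, the CHIR99021 arm or the days stood in for replicates. Alternatives used DESeq2 1.42.0, limma 3.58.1 on log2(FPKM + 1) and log2(FPKM + 0.1), other filters, single days and each library left out in turn. In simulated counts for the 11272 genes, the comparison of bFGF over days 1 to 7 recovered 100% of genes changed by 1 on the log2 scale, and that on day 7 recovered 82.7%. These shares are over all changed genes and do not give the recovery of histone genes with few or shared counts. Hist2h2aa2, at -2.63 (log2, SE 1.19, adjusted p = 0.0637, edgeR) with bFGF over days 1 to 7, did not pass.

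Named were the 4 genes of each type with the highest mean FPKM, the largest rises and falls with bFGF over days 1 to 7 (up to 6 each) and on days 1 and 7 (up to 3 each) past the threshold, the genes whose bFGF effect differed between days, and in each pathway list the 3 highest genes with the largest rise and fall. Hist1h2ac, Hist1h2bq, Hist1h2br, Hist1h2be, Hist1h2bj and Hist1h4m were named after their values were seen. Depth was 17571973 to 19428744 expected counts per library. Promoters came from RefSeq (61 of 66 genes matched) and transcripts from GENCODE M21, both on GRCm38.p6.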

Additional observations from a re-analysis of the deposited data

Results flagged for a closer look

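For 4 genes the log2 effect of bFGF on days 3 to 7 differed from that on day 1 by the test of that difference in edgeR. The difference was 1.92 for Hist1h2ap (SE 0.44, adjusted p = 0.00251), with effects of -0.07 (day 1) and 3.38 (day 7). The value for Hist2h2be was -1.36 (SE 0.20, adjusted p = 9.89e-05) and that for Hist3h2a was -1.01 (SE 0.27, adjusted p = 0.00654). The fitted difference for Hist1h2ao was 6.06 (SE 0.72, adjusted p = 4.78e-05), which depends on the prior count because the gene was listed at 0 in the 4 libraries without bFGF of days 5 and 7, so it is not a bound.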

How the results depend on the processing

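Among named genes that passed the threshold in a comparison, no alternative reversed the direction. Of the 1487 such single-gene results under alternatives, 1420 kept their side of the threshold. Directions of genes that had not passed were not checked, and that of the H2B sum changed with the scaling. The number of histone genes called was within 1.5 times the reported number in most cases. With no filter on low values it was 15 (2 higher, 13 lower) for bFGF over days 1 to 7, 14 on day 5, 21 on day 7, 7 for the difference between days, 3 for day 7 against day 3 without bFGF and 16 with it. All 66 genes were then tested, and among the 18 genes the calls were 10 on day 5 (3 higher, 7 lower), 2 for day 7 against day 3 without bFGF and 11 with it (8 higher, 3 lower). With a minimum mean count of 10, day 7 against day 3 without bFGF gave 3, and DESeq2 and limma on log2(FPKM + 0.1) gave 2 each. For the difference between days limma gave 9 on log2(FPKM + 1), 8 on log2(FPKM + 0.1) and 7 after quantile normalization, which also gave 7 for day 3 against day 1 with bFGF, and the cause was not tested. Fits of a single day gave 1 on day 1 and 3 on day 3. With a pseudocount of 0.1, the genes at least 2 times different from day 0 were 6 in BM, 5 in C and 7 in BC on day 1.

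Leaving out 1 library at a time gave 7 to 11 calls for bFGF over days 1 to 7, 0 to 0 for CHIR99021, 0 to 2 on day 1, 4 to 9 on day 3, 7 to 10 on day 5, 9 to 13 on day 7 and 4 to 6 for the difference between days. It gave 8 to 11 for day 3 against day 1 without bFGF and 9 to 12 with it, and for day 7 against day 3 it gave 1 to 2 without bFGF (2 without BM or C of day 1 or B or BC of day 3) and 8 to 12 with it. Hist1h4k over days 1 to 7 did not pass without BC of day 5 (adjusted p = 0.0613), C of day 7 (0.0536) or BC of day 7 (0.0534). No paired analysis was possible because each condition has 1 library and the labels carry no replicate numbers, so the pairs of sums match media within a day and are not replicates. Low counts, shared sequence and poly-A selection limit single genes, and the 48 genes below the filter held at most 375.7 expected counts per library.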
